A study of Mus musculus with 28 samples.

Results

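Collagens, laminins and integrins are the genes by which a cell builds the sheet of matrix beneath it and holds on to that sheet. They were taken from the array by the form of their symbols (Col, a number, a and a number; Lama, Lamb or Lamc with a number; Itga or Itgb with a digit or one of the letters d, e, l, m, v and x). This gave 81 of 19938 gene symbols, namely 44 collagen chains, 10 laminin chains and 27 integrin subunits, each read by 1 probe set. The values were log2 expression levels on 28 mouse gene arrays.

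Collagens assemble from alpha chains into triple helices. The fibrillar types, such as types I, III and V, form the fibres of connective tissue, and type IV forms the network of basement membranes. Laminins are trimers of an alpha, a beta and a gamma chain, and in the early embryo and in embryonic stem (ES) cells they are the matrix on which epiblast cells polarise. Integrins pair an alpha with a beta subunit in the cell membrane. Partners of Itgb1 bind laminin (Itga3, Itga6, Itga7), collagen (Itga1, Itga2, Itga10, Itga11) or fibronectin and related ligands (Itga5, Itga8, Itgav), Itgav also pairs with Itgb3, Itgb5 and Itgb8, and Itga6 also pairs with Itgb4.

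The study asked how hotspot mutations in the RNase IIIb domain of DICER1, the enzyme that cuts microRNAs out of their hairpin precursors, act in cells. All arrays held total RNA of mouse ES cells in log-phase growth in ES medium. A Dicer+/+ line (n = 2 arrays) and a Dicer-/- line (n = 3) carried no vector or transgene. All other groups were Dicer-/- ES cells with a vector: an eGFP control in pLD-puro-ENvA (n = 3), wild-type DICER1 in ENvA (4 arrays) or in pLD-puro-PGKnvA (2 arrays), the mutants D1709A (n = 4), E1705K (n = 3) and D1810Y (n = 3) in ENvA, and the mutants D1709N (n = 2) and E1813Q (n = 2) in PGKnvA. The labels do not say that replicates came from separate cultures, so a p-value here reflects the spread between arrays alone, and that spread may be technical. No source used here gives the number of lines or clones behind a group. In bulk RNA, fewer cells of a type and less RNA per cell cannot be told apart.

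Array medians lay between 7.14 and 7.27, and the ES cell label was borne out by Pou5f1, whose group means were 12.37 to 12.92, and Nanog, at 12.62 to 13.16. The 10 ES cell markers examined were not constant across groups. From Dicer+/+ to wild-type DICER1, 4 were higher and 5 lower at an adjusted p under 0.05 in limma, with Klf4 lower by 1.08. From wild-type DICER1 to the mutants, 2 were higher and 7 lower. Some arrays obeyed exact relations that bear on the results. In wild-type DICER1 and in D1709A the array numbered 4 stood apart from the other arrays of its group, in opposite directions, and the deviations of the pair summed to 0 within 0.000133 for every probe set. The deviations of the arrays numbered 1 of 5 groups (Dicer+/+, Dicer-/-, wild-type DICER1, D1709A and E1705K) also summed to 0, within 0.000183. The means of the ENvA and PGKnvA wild-type DICER1 arrays were equal within 7.5e-05. No source used here names a step that would give these relations. The sums over the arrays numbered 4 and 1 leave 16 free residuals where the model counts 18, so p-values are approximate. A level of 6.42, the 30th percentile over genes, was the filter for testing, and no size of change is given where a compared group's mean lay under it.

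Of the 81 genes, 65 passed the filter and were tested, namely 37 collagens, 8 laminins and 20 integrins. The 16 genes under the filter were the collagens Col10a1, Col12a1, Col19a1, Col28a1, Col4a6, Col5a2 and Col8a1, the laminin chains Lama2 and Lama4, and the integrin subunits Itga2, Itga4, Itgae, Itgam, Itgax, Itgb2 and Itgb6. Itgam, Itgax and Itgb2 belong to the integrins of white blood cells. Of the 8 blood markers, Ptprc (group means 5.33 to 5.50) and Lyz2 (4.92 to 5.16) were under the filter in all 9 groups, while Cd68 was at 9.38 to 10.28, Cd34 at 6.35 to 8.15 and Tal1 at 7.15 to 7.41. Itgal, another white cell subunit, did pass the filter and is described with the integrins. Just under the filter lay Col8a1 (mean over all arrays 6.39) and Col5a2 (6.40), and just above it Col8a2 (6.52) and Itgb8 (6.53). In addition, 3 probe sets with several symbols were not used. Col6a5, Col6a6 and Itgad had a second probe set, which correlated with the one used at only 0.295, 0.294 and 0.147 over the 28 arrays.

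For 4 genes, chosen after their values were seen because all of them were higher without Dicer and lower again with wild-type DICER1, the sequence upstream of the annotated start is shown. Each runs 5′ to 3′ along the gene's strand and ends 1 base before the outermost RefSeq start in GRCm38.p6. Capitals mark the GC box letters GGGCGG or, for the other strand, CCGCCC. Lama5 (laminin alpha 5) lies at chr2:180176373-180225904 on the minus strand and its window is chr2:180225905-180226109. Itga5 (the fibronectin receptor's alpha subunit) has its window at chr15:103366792-103367041, minus strand. Itga8 (the receptor subunit for nephronectin) has its window at chr2:12301986-12302194, minus strand. Itgb5 (a partner of Itgav) has its window at chr16:33829415-33829664, plus strand.
Lama5: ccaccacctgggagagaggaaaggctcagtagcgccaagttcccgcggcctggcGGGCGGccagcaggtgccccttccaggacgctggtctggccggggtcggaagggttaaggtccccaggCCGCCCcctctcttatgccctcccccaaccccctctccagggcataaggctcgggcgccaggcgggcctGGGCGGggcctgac
Itga5: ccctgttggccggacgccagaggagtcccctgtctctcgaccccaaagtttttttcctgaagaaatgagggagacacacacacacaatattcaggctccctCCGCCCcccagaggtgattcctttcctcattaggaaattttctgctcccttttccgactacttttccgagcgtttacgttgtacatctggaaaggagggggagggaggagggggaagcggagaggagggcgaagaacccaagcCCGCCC
Itga8: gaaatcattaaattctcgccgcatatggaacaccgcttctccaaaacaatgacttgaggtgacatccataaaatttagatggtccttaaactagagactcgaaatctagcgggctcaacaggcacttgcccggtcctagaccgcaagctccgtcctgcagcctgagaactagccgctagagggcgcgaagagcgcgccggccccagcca
Itgb5: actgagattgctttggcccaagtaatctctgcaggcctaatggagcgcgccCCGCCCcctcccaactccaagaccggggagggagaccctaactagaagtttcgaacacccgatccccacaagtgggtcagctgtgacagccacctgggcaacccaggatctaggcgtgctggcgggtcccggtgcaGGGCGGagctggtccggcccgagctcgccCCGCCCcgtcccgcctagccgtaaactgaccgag
The windows of Lama5 and Itgb5 hold 3 GC boxes each, that of Itga5 holds 2 and that of Itga8 holds 0. In the RefSeq table's longer windows, from 250 bases before to 50 after each start, the GC box letters stood on either strand for 27 of the 48 tested genes with an entry (56.2%) and for 38.2% of 27025 genes. The letters TATAAA stood for 4 of the 48 (8.33%) against 15.7% of genes, and CCAAT for 16 (33.3%) against 41.1%. The 27025 genes were not passed through the expression filter, as the 48 were. The shares therefore cover unlike sets, and no difference between them is read. A match of letters is a description of the window and not a binding site.

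Without Dicer, the rises were led by the integrin subunits Itgb4, Itgav, Itga5 and Itga8 and by Lama5, the largest fall was in Itga9, and most collagens did not pass the test. Between the Dicer-/- and Dicer+/+ lines, 20 of the 65 tested genes (30.8%) were called, where 57.9% of all 13956 tested genes were. Of the 20, 17 were higher (30.7% of all genes) and 3 lower (27.2%) without Dicer. A gene was called at an adjusted p under 0.05 in limma. By family, 3 of 37 collagens, 4 of 8 laminins and 13 of 20 integrins passed. The integrin share was near that of the array as a whole, and the collagen share, 8.1%, was below it. Of the 65 genes 14 were called with a difference of at least 0.5 on the log2 scale, which 23.9% of all genes were. The median difference was 0.03 over the 65 genes and 0.01 over all genes.

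Among the integrins, Itgb4, the beta subunit that pairs with Itga6 on laminin, read 8.16 and 8.02 in the 2 Dicer+/+ arrays and 9.88, 9.87 and 9.94 in the 3 Dicer-/- arrays. The groups did not overlap, and the rise was 1.81 (SE 0.0758, adjusted p = 2.32e-16 in limma), a 3.51-fold higher level. Itgav, the alpha subunit of vitronectin receptors, read 10.25 in both Dicer+/+ arrays and 11.88, 11.86 and 11.85 in the Dicer-/- arrays, a rise of 1.61 (SE 0.0619, adjusted p = 4.40e-17). Its partners Itgb3 and Itgb5 rose as well, by 0.75 (SE 0.0892, adjusted p = 6.69e-08) and 0.51 (SE 0.0540, adjusted p = 1.12e-08). Itga5 rose by 1.21 (SE 0.0391, adjusted p = 1.41e-18), from 9.54 and 9.57 to 10.73, 10.80 and 10.76, and the common partner Itgb1 rose by 0.44 (SE 0.0405, adjusted p = 6.59e-10). Every Dicer-/- array was above every Dicer+/+ array for these 6 subunits, as was the case in one direction or the other for 74.7% of all tested genes.

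Itga8 rose from a level under 6.42: its arrays read 5.99 and 5.96 with Dicer and 7.21, 7.27 and 7.25 without (adjusted p = 2.47e-07 in limma). Itgal, the alpha subunit of a white cell integrin, rose by 0.74 (SE 0.0722, adjusted p = 2.43e-09), from 6.86 and 6.80 to 7.54, 7.65 and 7.52, beside 2 of 5 tested blood markers called higher and 0 lower. The part of blood-like cells in this was not tested. The laminin receptor subunits Itga3 and Itga6 rose by 0.64 (SE 0.130, adjusted p = 0.000149) and 0.41 (SE 0.0674, adjusted p = 9.08e-06). The opposite direction was taken by Itga9, a receptor subunit for tenascin and other ligands, which fell by 1.09 (SE 0.0944, adjusted p = 2.57e-10) from 9.14 and 9.15 to 8.11, 8.07 and 7.97. Itga7, a laminin receptor subunit best known from muscle, fell by 0.40 (SE 0.0979, adjusted p = 0.00101).

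Of the laminins, Lama5 read 9.59 and 9.58 in the Dicer+/+ arrays and 10.69, 10.82 and 10.65 in the Dicer-/- arrays. The groups lay more than 1 log2 unit apart, and the rise was 1.14 (SE 0.0481, adjusted p = 2.79e-16 in limma), or 2.20-fold. Lamc1, the gamma chain shared by most laminins, rose by 0.74 (SE 0.0568, adjusted p = 2.54e-11), from 11.50 and 11.55 to 12.27, 12.28 and 12.26. Lama1, the main alpha chain of the early embryo's first laminin, was at 10.12 ± 0.04 (SD, n = 2) and 10.15 ± 0.08 (n = 3) and did not pass the test. Lamb2, a beta chain, rose by 0.33 (SE 0.0683, adjusted p = 0.000183). Lamb1 was lower by 0.13 (adjusted p = 0.0401), a call lost when several single arrays were left out.

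The 3 collagens that rose all belong to basement membranes. Col4a1 and Col4a2, the 2 chains of the common type IV network, rose by 0.66 (SE 0.0803, adjusted p = 9.56e-08) and 0.53 (SE 0.0957, adjusted p = 3.51e-05), and Col18a1, a collagen that carries heparan sulphate, rose by 0.56 (SE 0.0575, adjusted p = 5.76e-09). Col4a1 read 7.59 and 7.35 with Dicer and 8.13, 8.16 and 8.10 without, with no overlap. The other type IV chains that could be tested, Col4a3, Col4a4 and Col4a5, did not pass here, and their group means were 6.65 to 7.18 across all 9 groups. Of the fibrillar chains, Col1a1 was at 7.87 ± 0.16 (SD, n = 2) and 7.82 ± 0.10 (n = 3), Col3a1 at 7.37 ± 0.12 and 7.39 ± 0.01, and none of Col1a1, Col1a2, Col3a1 and Col5a1 passed the test.

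Genes that process and bind these proteins moved mostly the same way between the parental lines. Of 24 tested genes for collagen processing and cross-linking, 17 were higher and 2 lower without Dicer, with a median difference of 0.51 against 0.01 over all genes. They were led by Loxl4, a lysyl oxidase that cross-links collagen (2.95, adjusted p = 1.55e-10 in limma), and Pcolce, an enhancer of procollagen cleavage (1.74, adjusted p = 3.82e-13). Of 20 other basement membrane and matrix glycoproteins, 11 were higher and 4 lower, among them Thbs1 (thrombospondin 1, 2.66), Sparc (1.58) and Npnt (nephronectin, the ligand of Itga8, 1.52). Of 24 genes for the adhesion complex inside the cell, 18 were higher and 1 lower, with Parva, an actin-binding partner of integrin-linked kinase, higher by 2.48 (adjusted p = 5.81e-20). Of 12 matrix proteases and inhibitors, 7 were higher and 3 lower, with Timp3 higher by 1.88 and Mmp2, a gelatinase, lower by 1.22. Endothelial markers also rose: 4 of 6 were called higher, with Tek at 9.20 and 10.56, Vwf at 7.93 and 9.09 and Pecam1, which ES cells express themselves, at 10.45 and 11.29 in Dicer+/+ and Dicer-/- cells. Kdr, also called higher, read 6.06 and 6.80. Cdh5 (6.43 and 6.48) and Tie1 (6.58 and 6.61) did not pass. Of the other marker lists, 3 of 8 trophoblast markers were higher and 2 lower, 3 of 8 fibroblast or feeder markers were higher and 1 lower, and 1 of 9 endoderm markers was higher and 2 lower. The part of any such cells in the result was not tested.

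**Figure D1:**
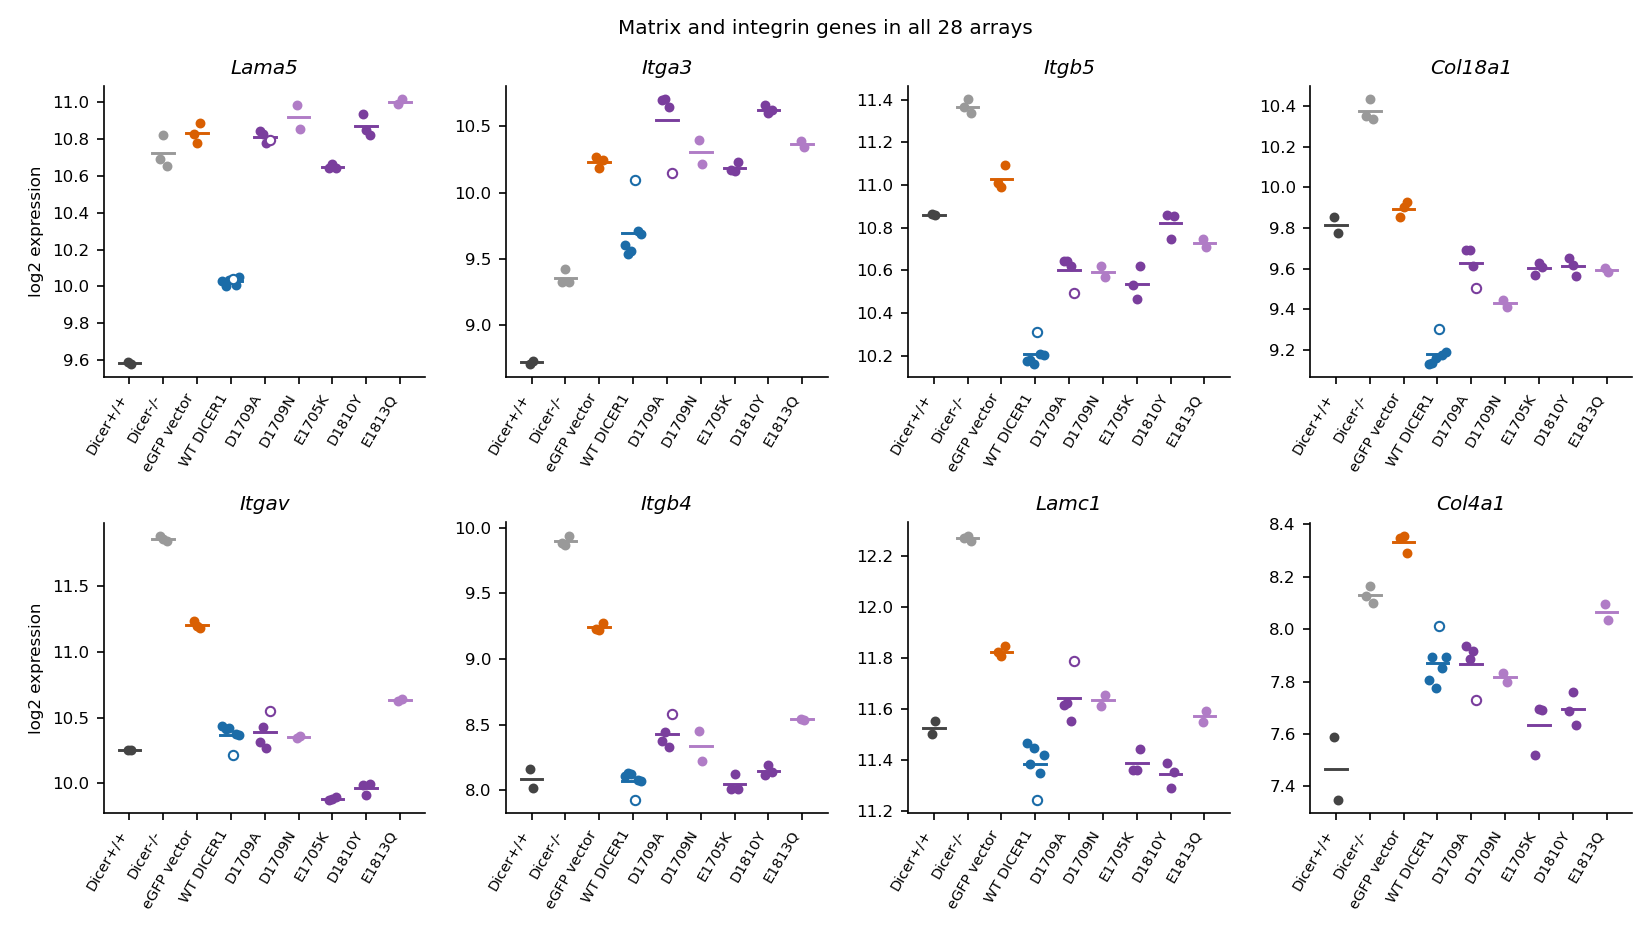
Log2 expression level of 8 genes (vertical axes, each panel on its own scale that does not start at 0) in every array of the 9 groups; points are arrays, open points are arrays 4 of wild-type DICER1 and D1709A, and lines are group means. Lama5 sits at 10.00 to 10.05 in all 6 wild-type DICER1 arrays and at 10.64 to 11.02 in the mutant arrays, while Itgav and Itgb4 fall in both.

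The eGFP vector line was not a copy of the Dicer-/- line. In this control comparison 18 of 65 genes (27.7%) were called, against 47.6% over the array. With the vector 8 were higher (20.2% over the array) and 10 lower (27.4%), and 8 differed by at least 0.5 (11.5%). Without the third Dicer-/- array or the first eGFP array, 5 in place of 8 were called higher. Itgb3 fell by 1.01 (SE 0.0798, adjusted p = 1.19e-10 in limma), Itgav by 0.66 (SE 0.0554, adjusted p = 3.72e-10) and Itgb4 by 0.65 (SE 0.0678, adjusted p = 1.42e-08). Itga1, a collagen receptor subunit, rose from a level under 6.42 (arrays at 6.01, 6.26 and 5.88) to 7.37, 7.16 and 7.29 (adjusted p = 0.000119). Itga3 rose by 0.88 (SE 0.117, adjusted p = 7.75e-07), from 9.33, 9.42 and 9.33 to 10.27, 10.19 and 10.24. Lamb1 rose by 0.60 (SE 0.0489, adjusted p = 2.17e-10), while Lamb2 and Lamc1 fell by 0.57 (SE 0.0611) and 0.44 (SE 0.0508). Lama5 went from 10.72 ± 0.09 to 10.83 ± 0.05 (SD, n = 3 each) with overlapping arrays, a difference of 0.11 (SE 0.0431, adjusted p = 0.0406) whose call was lost when some single arrays were left out. Itga5 was at 10.76 ± 0.04 and 10.75 ± 0.03 and did not pass. Both groups lack Dicer, and this comparison shares its Dicer-/- arrays with the one before.

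With wild-type DICER1, Itga8, Itgb4, Itgav, Itgb5 and Lama5 had the largest falls from the eGFP line, and Itga7 and Col1a1 the largest rises. Of the 17 genes higher in the Dicer-/- than in the Dicer+/+ line, 14 were lower here (82.4%) and 0 were higher, where of all 4283 genes higher in the Dicer-/- line 61.5% were lower and 13.5% higher. These comparisons share no array, and the difference between the shares was not tested. The remaining 3 did not pass here: Itgb3 (8.82 in Dicer-/-, 7.82 with eGFP and 7.91 with wild-type DICER1), Itga6 (12.05, 11.59 and 11.57) and Itgal (7.57, 7.35 and 7.26), each of which was called lower in the eGFP than in the Dicer-/- line. For the 14, lower is against eGFP and not against the Dicer-/- line. Itga3 read 9.33 to 9.42 in Dicer-/- arrays and 9.53 to 10.10 with wild-type DICER1, beside a mean of 10.23 with eGFP. Col4a2 means were 7.71 in Dicer-/-, 8.11 with eGFP and 7.67 with wild-type DICER1. The other genes of the 14 had lower means with wild-type DICER1 than in Dicer-/-, a comparison that was not tested. The test called 29 of the 65 (44.6%), against 59.5% over the array, with 12 higher (30.8% over the array) and 17 lower (28.7%). A called difference of at least 0.5 was met by 9 (18.4%), and the arrays of the groups did not overlap for 23 (55.4%). By family, 11 of 37 collagens (8 higher, 3 lower), 6 of 8 laminins (1 higher, 5 lower) and 12 of 20 integrins (3 higher, 9 lower) passed. The count of higher genes rested on single eGFP arrays, at 21 without the second and 7 without the third, where the count of lower genes stayed at 17 or 18 with any array left out.

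Itgb4 fell from 9.23, 9.22 and 9.27 with eGFP to a range of 7.93 to 8.13 (median 8.09) over the 6 wild-type DICER1 arrays. The groups lay more than 1 log2 unit apart, and the level fell by 1.17 (SE 0.0635, adjusted p = 4.63e-14 in limma). The Dicer+/+ arrays read 8.16 and 8.02, and their difference from wild-type DICER1 did not pass. Itgav fell by 0.83 (SE 0.0518, adjusted p = 6.04e-13) to a mean of 10.37 ± 0.08 (SD, n = 6), beside 10.25 in Dicer+/+ cells. Itgb5 fell by 0.82 (SE 0.0451, adjusted p = 5.53e-14) from 11.01, 10.99 and 11.09 to a range of 10.16 to 10.31, and this was below the 10.86 of both Dicer+/+ arrays. Itga8 fell by 1.57 (SE 0.137, adjusted p = 3.39e-10), from 8.13, 7.87 and 8.08 to a range of 6.23 to 6.87, the widest change of the 65 genes here. Itga5 and Itgb1 fell by 0.37 (SE 0.0327) and 0.41 (SE 0.0339). Itga7 went the other way and rose by 0.60 (SE 0.0819, adjusted p = 7.18e-07).

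Lama5 fell by 0.80 (SE 0.0403, adjusted p = 1e-14 in limma), from 10.82, 10.78 and 10.89 to 10.00 to 10.05 over 6 arrays. The wild-type DICER1 arrays agreed closely (SD 0.02) and were 0.44 above the Dicer+/+ line (SE 0.0457, adjusted p = 9.69e-09). Lamc1 fell by 0.44 (SE 0.0475) and Lama1 by 0.34 (SE 0.0393), and Lamb1 alone of the tested laminins rose, by 0.25 (SE 0.0457, adjusted p = 3.74e-05).

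Of the 11 collagens called, the 3 that fell were the basement membrane chains Col18a1, Col4a1 and Col4a2. Col18a1 fell by 0.71 (SE 0.0481, adjusted p = 3.00e-12 in limma), Col4a1 by 0.46 (SE 0.0672, adjusted p = 1.86e-06) and Col4a2 by 0.44 (SE 0.0801, adjusted p = 3.57e-05). The 8 that rose were of several kinds and included a type IV chain. The fibrillar chain Col1a1 rose by 0.52 (SE 0.103, adjusted p = 9.82e-05), from 7.85, 8.07 and 7.73 to a range of 8.18 to 8.57, with no overlap. Its partner Col1a2 rose by 0.35 (SE 0.105, adjusted p = 0.00559), with overlapping arrays. Col11a1, a minor fibrillar chain, rose by 0.30 (SE 0.0736, adjusted p = 0.00114), with no overlap. Col20a1 (0.26), Col13a1 (0.25), the type IV chain Col4a5 (0.22), the fibrillar chain Col5a1 (0.22) and Col22a1 (0.21) made up the rest, each with overlapping arrays. The call of Col4a5 (adjusted p = 0.0474) was lost in 21 of 28 fits that left out 1 array, and its difference was 0.10 without the third eGFP array. In contrast, Col3a1, at 7.32 ± 0.15 (SD, n = 3) and 7.47 ± 0.05 (n = 6), did not pass. Fibroblast or feeder markers moved in the same samples as Col1a1: 7 of 8 tested were called, 6 higher and 1 lower, and the mean over the 13 markers on the array was at most 6.39 in the eGFP arrays and at least 6.96 in the wild-type DICER1 arrays. Acta2 (smooth muscle actin) went from 7.99 to 10.74 and Pdgfrb from 6.48 to 7.79 in group means. Twist1, the marker called lower, went from 7.52 to 7.19. Postn (periostin) was not tested, and its means were 4.81 with eGFP, under the filter, and 7.21 with wild-type DICER1. Lum, Fap and Prrx1 were under 6.42 in all 9 groups. Trophoblast and endoderm markers moved in these samples too, and cells of both kinds are known to make laminin and type IV collagen. Of 8 tested trophoblast markers 7 were higher and 0 lower, led by Eomes (1.33) and Gata3 (1.17). Elf5, on the array but not tested, went the other way, from 7.08 to 6.37 in group means. The mean over the 9 on the array was at most 8.55 in the eGFP arrays and at least 8.84 in the wild-type DICER1 arrays. Of 9 tested endoderm markers 4 were higher and 0 lower, led by Gata6 (1.15) and Dab2 (0.95), with the mean over 13 at most 6.87 and at least 6.97, and the endoderm genes Ttr and Afp were under 6.42 in all 9 groups. The part of fibroblast-like, trophoblast-like or endoderm-like cells in these results was not tested.

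In the companion lists, Loxl4 fell by 2.06 and Pcolce2 by 1.91 with wild-type DICER1, and P4ha1, a prolyl hydroxylase of collagen, rose by 1.61, with 7 higher and 11 lower of 24 processing genes. Of the 20 other matrix glycoproteins 5 were higher and 10 lower, and Tnc (tenascin C) rose by 2.06 (adjusted p = 6.63e-13 in limma). Parva fell by 1.42 (adjusted p = 1.09e-16) in an adhesion complex list with 7 higher and 9 lower of 24. Of the proteases and inhibitors 5 were higher and 6 lower of 12, with Mmp2 higher by 1.27 and Mmp14, the membrane-type protease, lower by 0.83. The endothelial markers fell, 5 of 6 called lower, led by Kdr (by 0.965) and Tek (by 0.757), with Pecam1 lower by 0.68. Of 5 tested blood markers 0 were higher and 2 lower. The part of endothelium-like or blood-like cells in the result was not tested.

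**Figure D2:**
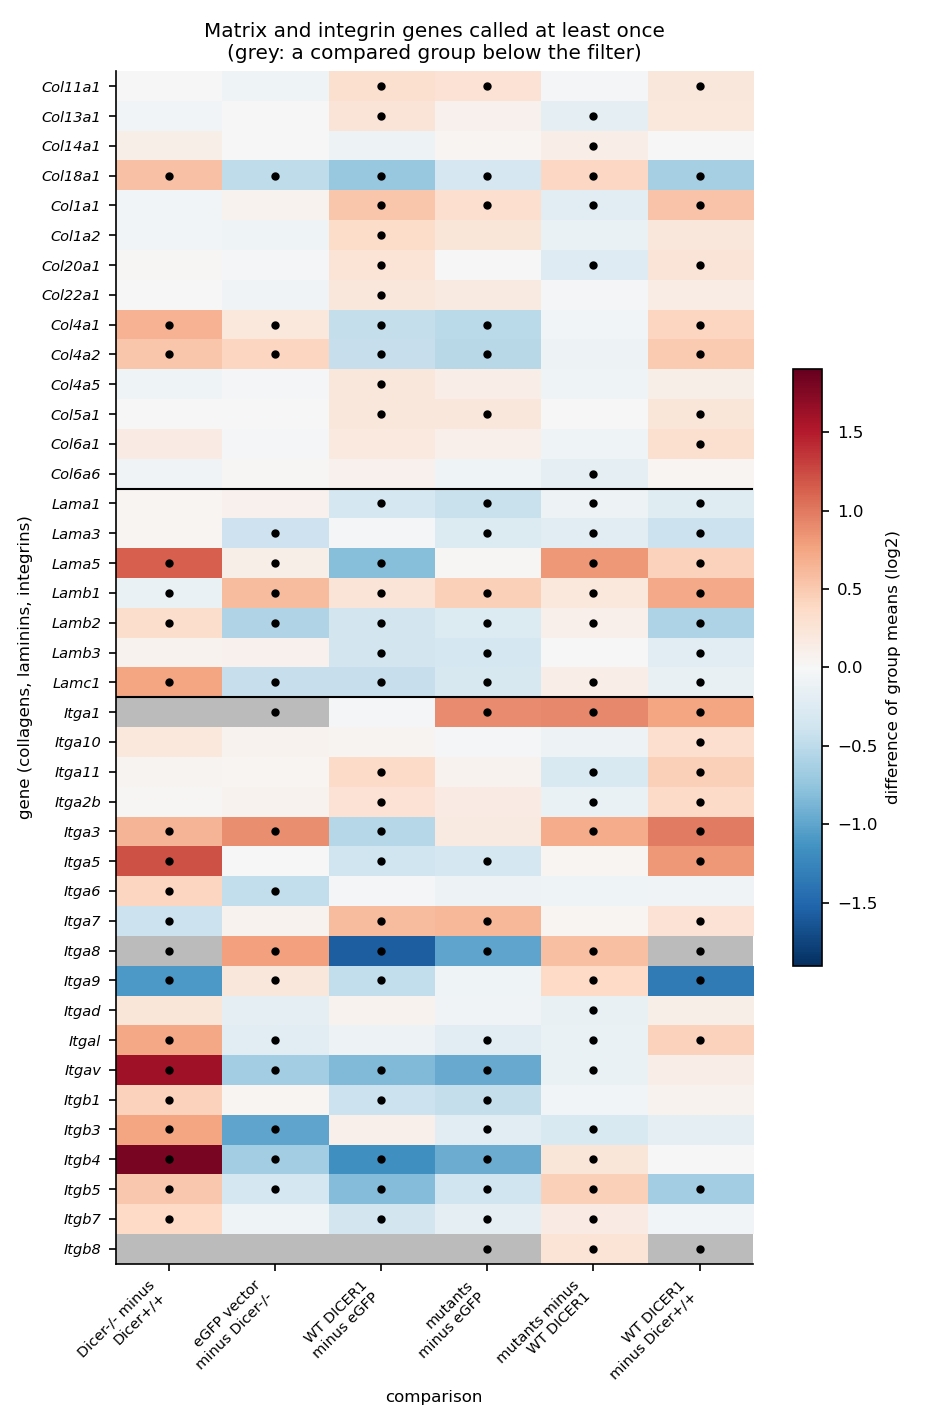
Log2 difference between group means (colour; red higher, blue lower in the first-named group) for the 40 genes called in at least 1 of the 6 main comparisons (rows: collagens, laminins, integrins, parted by lines; columns: comparisons); dots mark calls and grey cells a group mean under 6.42. Itgb4 differs by 1.81 between the parental lines and falls by 1.17 with wild-type DICER1, while most collagen rows are pale.

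Wild-type DICER1 cells were not the same as the Dicer+/+ line. The test called 27 of 65 (41.5%), against 52.9% over the array, with 19 higher (28.1% over the array) and 8 lower (24.8%). A called difference of at least 0.5 was met by 9 (16.2%). Without the second Dicer+/+ array 11 were called higher. Itga9 was lower by 1.34 (SE 0.0895, adjusted p = 3.84e-12 in limma), at 7.71 to 7.98 in wild-type DICER1 cells and 9.14 and 9.15 in Dicer+/+ cells, beside 8.11, 8.07 and 7.97 in the Dicer-/- line. Itga3 was higher by 0.98 (SE 0.124, adjusted p = 2.68e-07) and Itga5 by 0.82 (SE 0.0371, adjusted p = 2.03e-15). Among laminins, Lamb1 was higher by 0.72 (SE 0.0519, adjusted p = 1.68e-11) and Lamb2 lower by 0.58 (SE 0.0648, adjusted p = 3.93e-08). Among collagens, Col1a1 and Col4a2 were higher by 0.54 (SE 0.116) and 0.50 (SE 0.0908), and Col18a1 was lower by 0.63 (SE 0.0546, adjusted p = 4.40e-10). Beside these, 7 of 8 fibroblast or feeder markers were higher and 0 lower, led by Acta2 (2.998), and 6 of 8 trophoblast markers were higher and 2 lower. Their part was not tested.

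The mutants were compared with the eGFP line as the mean of their 5 group means. The test called 24 of 65 (36.9%), against 53.1% over the array, with 7 higher (29.3% over the array) and 17 lower (23.8%). A called difference of at least 0.5 was met by 7 (12.4%), and the higher count was 17 without the second eGFP array. The falls were again in Itga8 (0.997, SE 0.130, adjusted p = 4.48e-07 in limma), Itgav (0.96, SE 0.0494, adjusted p = 2.45e-14), Itgb4 (0.94, SE 0.0605, adjusted p = 1.81e-12), Itgb1 (0.46, SE 0.0323), Col4a2 (0.53, SE 0.0763) and Col4a1 (0.52, SE 0.0640). Itga1 rose by 0.90 (SE 0.211, adjusted p = 0.000847) and Itga7 by 0.63 (SE 0.0781, adjusted p = 1.99e-07). This comparison and that of wild-type DICER1 share the eGFP arrays, so their values are set side by side only. Lama5 differed between mutants and eGFP by 0.02, where wild-type DICER1 was 0.80 below eGFP. Itga3 was 0.17 above eGFP in the mutants and 0.54 below it with wild-type DICER1. Marker lists moved here as well. All 8 tested trophoblast markers were higher, among them Krt18 (1.14) and Hand1 (0.82). Elf5, on the array but not tested, went the other way. Its group means were 7.08 with eGFP and 6.02 to 6.35 in the mutants. Of 8 fibroblast or feeder markers 5 were higher and 1 lower, led by Acta2 (2.84), and of 6 endothelial markers 1 was higher and 5 lower. Of 9 endoderm markers 2 were higher and 0 lower. The mean over the 9 trophoblast markers on the array was at most 8.55 in the eGFP arrays and at least 8.62 in the mutant arrays, and the part of such cells was not tested.

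Where the mutants stood between the eGFP line and wild-type DICER1 was read for the 29 genes that those lines called apart. For 8 of them (Col18a1, Col1a1, Itga8, Itgb4, Itgb5, Itgb7, Lamc1 and Lamb2, the last with a call lost without the arrays numbered 4) the mutants were called from both and lay between, and of all 8307 such genes 28.3% did so. For 7, including Lama5, Itga3 and Itga9, they were called from wild-type DICER1 and not from eGFP, against 27.5% of all. For 8, including Col4a1, Col4a2, Itga5, Itgb1 and Itga7, they were called from eGFP and not from wild-type DICER1, against 23.6%. For Itgav, Lama1 and Lamb1 they lay beyond wild-type DICER1 (12.2% of all), and 3 more were called from neither (3.66%). The spread over these classes was close to that of the array as a whole, and a gene not called from a group is not shown to equal it. These positions rest on means over both vectors, and not all held within each. Against wild-type DICER1, Itgav was -0.29 in ENvA arrays alone and 0.12 in PGKnvA arrays alone. Lamc1 and Lama1 were not called in ENvA arrays alone (adjusted p = 0.113 and 0.335 in limma). Col1a1 and Lamb1 were not called in PGKnvA arrays alone (adjusted p = 0.274 and 0.0791). Itga8 was called in each vector but was -0.03 between the arrays numbered 4. Col18a1 and Itgb5 were called in each vector.

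**Figure D3:**
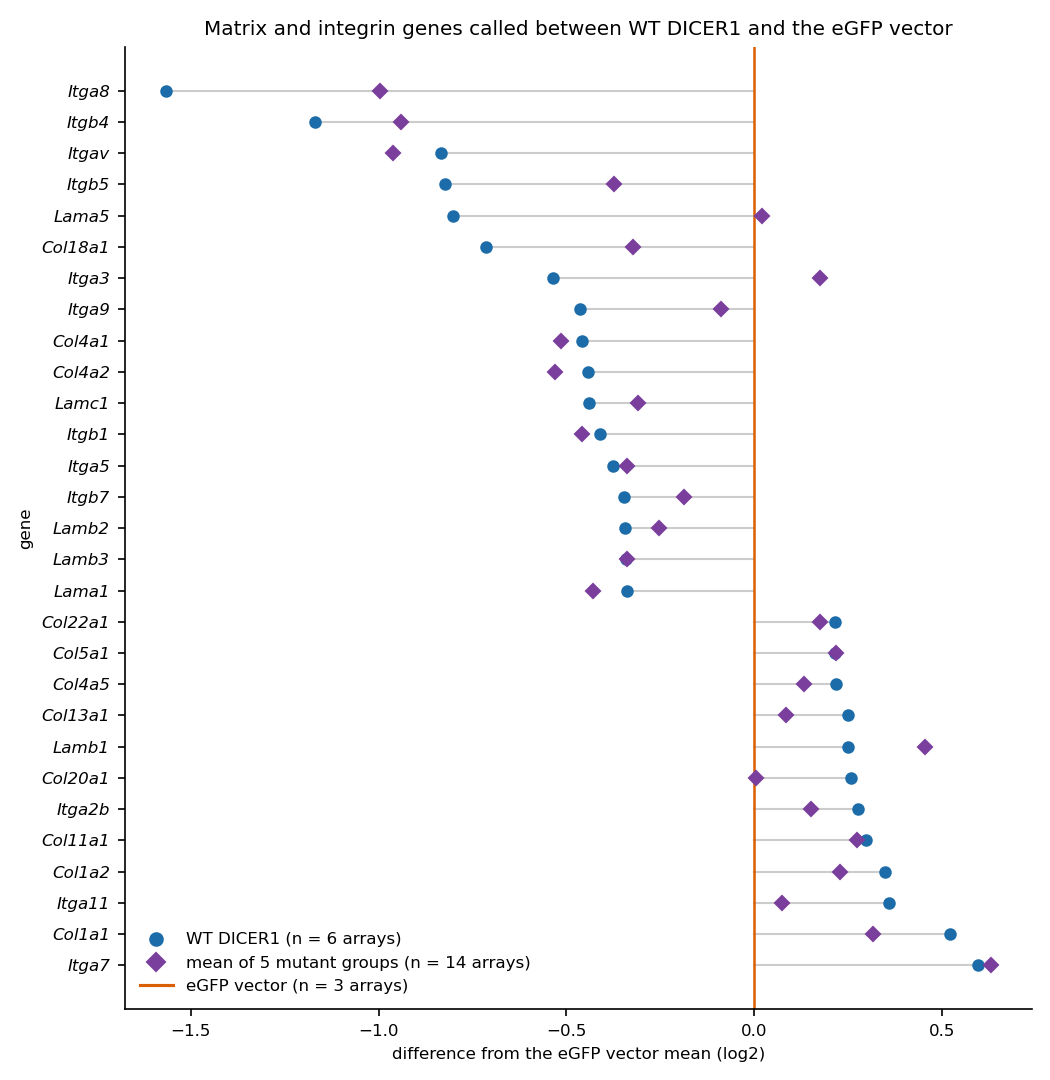
Difference from the eGFP mean on the log2 scale (horizontal axis) of wild-type DICER1 (circles, n = 6 arrays) and of the mean of the 5 mutant groups (diamonds, n = 14) for the 29 genes called between wild-type DICER1 and eGFP (rows). The Lama5 diamond lies at 0.02 and its circle at -0.80, and the Itgb1 pair lies at -0.46 and -0.41.

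Set directly against wild-type DICER1, the mutants differed most in Itga1, Lama5 and Itga3. The test called 26 of 65 (40.0%), against 60.1% over the array, with 14 higher (32.3% over the array) and 12 lower (27.7%). A difference of at least 0.5 was called for 4 of the 65 (7.02% of all genes), namely Itga1, Lama5, Itga3 and Itga8, all higher in the mutants. By family, 6 of 37 collagens, 6 of 8 laminins and 14 of 20 integrins passed. The comparison shares its wild-type arrays with those above, and the arrays fall into 3 sets: ENvA arrays 1 to 3, ENvA array 4 and the PGKnvA arrays. The mutants in ENvA arrays 1 to 3 are D1709A, E1705K and D1810Y. ENvA array 4 holds D1709A alone, and the PGKnvA arrays hold D1709N and E1813Q. When each set counted as 1 replicate, 1 of the 26 genes was still called, and that was Lama5. The sets hold different mutants and are tied by the exact relations given above, so they are not independent replicates of the same comparison.

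Lama5 was 10.00 to 10.05 in the 6 wild-type DICER1 arrays. It read 10.85, 10.83, 10.78 and 10.80 in D1709A, 10.98 and 10.85 in D1709N, 10.64, 10.66 and 10.64 in E1705K, 10.93, 10.85 and 10.82 in D1810Y, and 10.99 and 11.02 in E1813Q. All 14 mutant arrays were above all 6 wild-type arrays, and the gap between the closest of them was wider than the range within any mutant group. The difference was 0.82 (SE 0.0262, adjusted p = 2.89e-18 in limma), a 1.77-fold higher level, with 0.76 and 0.76 in the ENvA sets and 0.93 in the PGKnvA set. With the sets as replicates it was 0.81 (adjusted p = 0.0386), and over all alternatives it lay between 0.75 and 0.93. The ENvA and PGKnvA estimates themselves differed by 0.18 (adjusted p = 0.0230).

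Itga3, which binds laminins that contain the alpha 5 chain, was 0.71 higher in the mutants (SE 0.0709, adjusted p = 3.87e-09 in limma). The 6 wild-type arrays lay at 9.53 to 10.10 and the 14 mutant arrays at 10.15 to 10.71, with no overlap, but the highest wild-type value was array 4 and the lowest mutant value was array 4 of D1709A. Between those arrays the difference was 0.05, against 0.93 for the other ENvA arrays and 0.64 for PGKnvA. Without both arrays numbered 4 it was 0.82, and with sets as replicates 0.54 (adjusted p = 0.158). Over the 9 group means Lama5 and Itga3 correlated at r = 0.83, given as a description of 9 points that share the arrays.

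Itgb5 was 0.45 higher (SE 0.0294, adjusted p = 1.82e-12 in limma) and Col18a1 0.39 higher (SE 0.0313, adjusted p = 7.95e-11), each with every mutant array above every wild-type array. In the 3 sets the Itgb5 difference was 0.49, 0.18 and 0.45 and that of Col18a1 was 0.48, 0.20 and 0.33. Itga9 was 0.38 higher (SE 0.0513, adjusted p = 6.58e-07), also without overlap, and was 0.47, 0.07 and 0.36 in the sets. Non-overlap was met by 2375 of all tested genes, or 17.0%, and by 6 of these 65, the sixth being Itga11, a collagen receptor subunit, which was 0.29 lower (SE 0.0561, adjusted p = 9.22e-05).

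Itga1 had the widest difference, 0.91 higher in the mutants (SE 0.144, adjusted p = 5.33e-06 in limma), and the least agreement between arrays. The wild-type arrays ranged from 6.89 to 7.27 apart from array 4 at 8.05, and the D1709A arrays read 8.74, 8.86, 8.71 and 7.72, so the groups overlap through arrays 4. The difference was 1.60 in ENvA arrays 1 to 3, -0.33 between arrays 4 and 0.42 in the PGKnvA arrays. Itga8 was 0.57 higher (SE 0.0888, adjusted p = 4.70e-06), with 0.87, -0.03 and 0.40 in the same sets. Neither held its call when the sets were the replicates (adjusted p = 0.381 and 0.228).

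Lower in the mutants were Itgb3 (0.30, SE 0.0485), Itgav (0.13, SE 0.0337, adjusted p = 0.00206 in limma) and the alpha chain Lama3 (0.22, SE 0.0380, adjusted p = 2.13e-05), all with overlapping arrays. Itgav took opposite signs by set: -0.36 in ENvA arrays 1 to 3, 0.33 between arrays 4, and 0.12 in the PGKnvA arrays. Collagens differed little: Col20a1 fell by 0.25 (SE 0.0540, adjusted p = 0.000270) and Col1a1 by 0.20 (SE 0.0666, adjusted p = 0.0103). Of the companion genes, 15 of 24 for collagen processing were called, 9 higher and 6 lower, where 60.1% of all tested genes were called. P4ha1 was lower by 0.94, Plod2, a lysyl hydroxylase, lower by 0.83 and P3h2 higher by 0.52. Of the glycoproteins 7 were higher and 6 lower of 20, with Ntn1 (netrin 1) higher by 0.71 and Bcam, a surface receptor for laminin alpha 5, higher by 0.61 (adjusted p = 1.31e-18). Bcam also rose by 1.21 without Dicer and fell by 0.71 with wild-type DICER1. Of 24 adhesion complex genes 10 were higher and 8 lower, with Parva higher by 0.60, and of 12 proteases and inhibitors 4 were higher and 4 lower, with Timp3 lower by 0.56. Fibroblast or feeder markers gave 0 higher and 3 lower calls of 8, trophoblast markers 5 higher and 2 lower of 8, endoderm markers 1 higher and 3 lower of 9 and endothelial markers 3 higher and 2 lower of 6. Their part in these differences was not tested.

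The single mutants did not all do the same. Against wild-type DICER1, 19 of 65 genes were called for D1709A (background 45.8%), 11 for D1709N (40.0%), 24 for E1705K (48.0%), 23 for D1810Y (53.7%) and 14 for E1813Q (40.6%). The D1709N count was 5 without its first array and 7 without either PGKnvA wild-type array, and the groups differ in size and vector, so the counts are not ranked. A test of any difference among the 5 mutants called 19 of 65 genes (29.2%, background 43.5%), of them 2 collagens, 6 laminins and 11 integrins.

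Lama5, Itga3, Itgb5 and Col18a1 were called higher in each of the 5 mutants. These 5 tests share the wild-type DICER1 arrays, and each called 40.0% to 53.7% of all tested genes. The share of all genes called higher in all 5 was not counted, so this is not read as particular to these genes. Lama5 was higher by 0.78 in D1709A, 0.89 in D1709N, 0.62 in E1705K, 0.84 in D1810Y and 0.98 in E1813Q (SE 0.0373 to 0.0527), and these differed from each other (adjusted p = 0.000452 in limma). Itgb5 ranged from 0.33 in E1705K to 0.61 in D1810Y (adjusted p = 0.000356). Itga3 ranged from 0.49 in E1705K to 0.93 in D1810Y (adjusted p = 0.0235). For each of these 3 genes E1705K had the smallest of the 5 differences.

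Itgav parted the mutants. Its arrays read 9.87, 9.88 and 9.89 in E1705K and 9.99, 9.91 and 9.99 in D1810Y, below all 6 wild-type arrays (10.21 to 10.43), while both E1813Q arrays, at 10.63 and 10.64, were above them. The changes were -0.49 (SE 0.0518), -0.41 (SE 0.0518) and 0.26 (SE 0.0678), with 0.02 in D1709A and -0.02 in D1709N (adjusted p = 2.82e-08 among the 5 mutants in limma). Itga5 differed too (adjusted p = 6.28e-10): it was 0.24 higher in D1709A (SE 0.0303), 0.19 higher in E1813Q (SE 0.0428) and 0.25 lower in E1705K (SE 0.0327). Itgb1 was 0.34 lower in E1705K (SE 0.0339, adjusted p = 1.08e-08) and 0.15 higher in D1810Y (SE 0.0339, adjusted p = 0.000578). E1705K and D1810Y are both in ENvA.

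Itgb8, a subunit that pairs with Itgav and is known for releasing active TGF-beta, stood out in D1810Y. It read 7.92, 7.35 and 7.46 there, above every other array, of which the highest was 6.93 in E1705K. The difference from wild-type DICER1 was 1.11 (SE 0.126, adjusted p = 6.12e-08 in limma), and in E1705K it was 0.39 (SE 0.126, adjusted p = 0.0124). The Dicer+/+ and Dicer-/- arrays were all under 6.42. Itga6 was lowest in D1810Y as well, 0.34 below wild-type DICER1 (SE 0.0564, adjusted p = 1.29e-05), and Lamb1 was highest there, 0.34 above it (SE 0.0457, adjusted p = 6.85e-07).

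Col4a1 and Col4a2 kept together in the mutants. Their genes start head to head on chromosome 8 in GRCm38.p6, with the Col4a2 start on the plus strand at 11312805 and a Col4a1 start on the minus strand at 11312826. The annotated 5′ ends overlap, and the outermost Col4a1 start lies at 11312889. Col4a1 was lower than wild-type DICER1 in E1705K by 0.24 (SE 0.0672, adjusted p = 0.00497 in limma) and in D1810Y by 0.18 (SE 0.0672, adjusted p = 0.0285), and Col4a2 by 0.31 (SE 0.0801, adjusted p = 0.00241) and 0.27 (SE 0.0801, adjusted p = 0.00643). In E1813Q they were 0.19 and 0.19 higher, which did not pass. Over the 9 group means they correlated at r = 0.96, the second highest value for Col4a1 among all tested genes after AI467606 (0.98) and before Papolb (0.96). The genes most like Lamc1 were Laptm5, Tnfrsf1a and Igsf23 (r of 0.98 to 0.99), and those most like Itgb1 were Atp5a1, Trmt12 and Gpr107 (0.92 to 0.95). These are descriptions over 9 means from shared arrays.

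**Figure D4:**
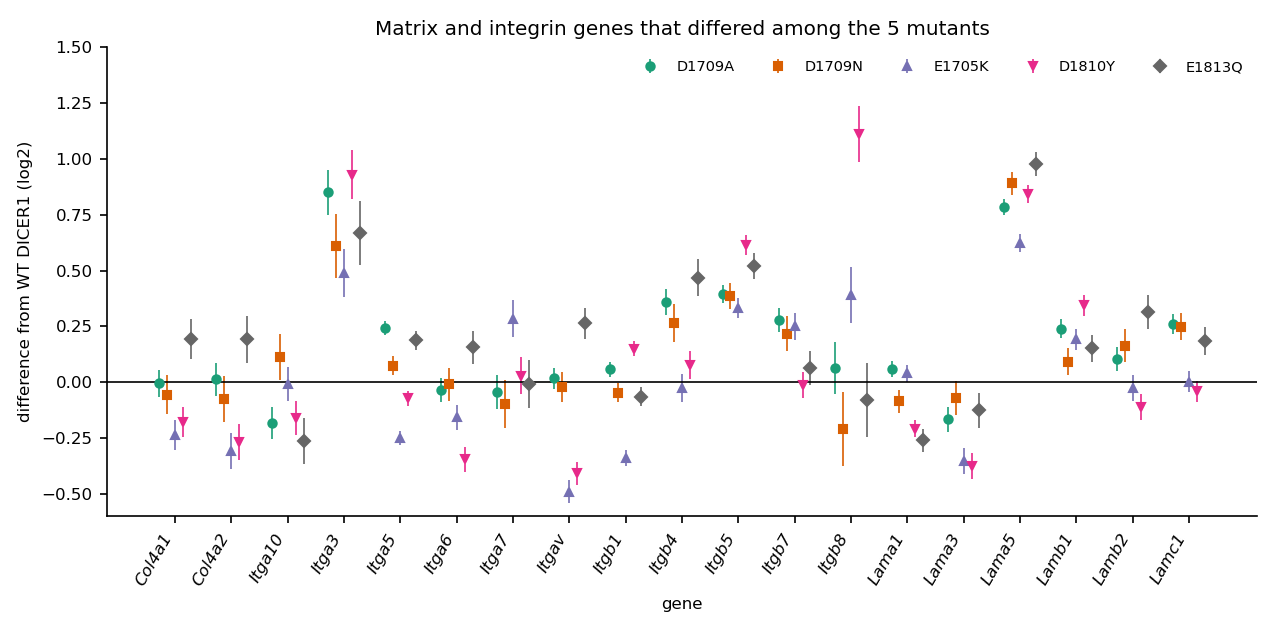
Log2 difference from wild-type DICER1 (vertical axis; bars are the standard error of the fit) for the 19 genes that differed among the 5 mutants (horizontal axis), with a symbol for each mutant. Lama5 and Itga3 lie above 0 for all 5, Itgb8 reaches 1.11 in D1810Y, and Itgav runs from -0.49 in E1705K to 0.26 in E1813Q.

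Seen over all 9 groups, the genes differed in how far they moved. Among genes with every group mean at or above 6.42, group means spanned 1.98 for Itgav, 1.91 for Itga3, 1.85 for Itgb4 and 1.42 for Lama5 on the log2 scale, while the median SD within a group over the 65 genes was 0.0557 to 0.150. In contrast, 25 of the 65 were called in none of the 6 main comparisons, where 12.8% of all tested genes were: 23 collagens, Lamc3 and Itgb2l. The group means of those 23 collagens spanned 0.0948 to 0.350. Called in all 6 were 6 of the 65 (9.57% of all tested genes): Col18a1, Lamb1, Lamb2, Lamc1, Itgb5 and Itga8. In order of group means, Lama5 ran from Dicer+/+ (9.58) and wild-type DICER1 (10.03) to E1705K (10.65), the Dicer-/- line (10.72), D1709A (10.81), eGFP (10.83), D1810Y (10.87), D1709N (10.92) and E1813Q (arrays at 10.99 and 11.02). From E1705K to D1709N the arrays of each group overlap with those of the next in this order. The E1813Q arrays lie just above all others, and those of Dicer+/+ and wild-type DICER1 overlap with no other group.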

How the data were processed

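Total RNA (Qiagen miRNeasy) was labelled with the Ambion WT expression kit, per the labels' protocols. The deposited values are log2 expression levels, credited to RMA and Partek 6.6 in the submitters' processing notes. Their settings are not given here. Of 35556 probe sets, 21789 had 1 symbol in the platform annotation, 1621 several and 12146 none. All 81 genes matched the GRCm38.p6 table by gene ID. A symbol with several probe sets was read by the one of highest mean level, and 13956 genes at or above the 30th percentile of means (6.42) were tested.

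One limma 3.58.1 model (R 4.3.3) on all 28 arrays had 9 group coefficients and a PGKnvA term, with a mean-variance trend and 18 residual degrees of freedom. The PGKnvA term rests on wild-type DICER1 alone, whose ENvA and PGKnvA means were equal within 7.5e-05. It was therefore near 0 for every gene and made almost no adjustment for the vector. Without it all 118 named gene comparisons stayed the same. Tests were two-sided, adjusted by Benjamini-Hochberg over all tested genes and called under 0.05. The number of arrays limits the precision. The script was tested on simulated data. Alternatives changed the filter, probe set, centring, variance prior, samples and replicate unit. Leaving out both arrays numbered 4 was chosen after seeing the data.

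The genes, the companion lists and the rule for named genes were chosen with earlier results of these data known. The rule took, per main comparison and family, up to 4 called genes with the largest rise and 4 with the largest fall, a fixed set of basement membrane, fibrillar, laminin and integrin genes, and up to 3 called genes per companion list. The single-mutant genes, Itgal, most of the cell type markers and Bcam were named after their values were seen.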

Additional observations from a re-analysis of the deposited data

Results flagged for a closer look

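In groups of 4 or 6 arrays, 9 of 72 tests found 1 array far from the rest of its group, where chance marks about 1 in 20, and each of the 9 was an array numbered 4. Array 4 of wild-type DICER1 was high for Itga1 (8.05, the others 6.89 to 7.27), Itga3 (10.10, the others 9.53 to 9.71), Itgb5 (10.31, the others 10.16 to 10.21) and Col18a1 (9.30, the others 9.13 to 9.19). It was low for Itgav (10.21, the others 10.37 to 10.43) and Itgb4 (7.93, the others 8.07 to 8.13). Array 4 of D1709A was low for Itga1 (7.72, the others 8.71 to 8.86), Itga3 (10.15, the others 10.64 to 10.71) and Itga7 (7.16, the others 7.33 to 7.35). The cause of these departures was not tested.

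The difference between mutants and wild-type DICER1 itself differed between the vectors for 6 of the 65 genes by an interaction term in limma, where 18.0% of all tested genes did so. The ENvA difference minus the PGKnvA difference was -0.41 for Itgav (adjusted p = 0.000402), -0.18 for Lama5 (adjusted p = 0.0230), -0.25 for Lamb2 (adjusted p = 0.0285), -0.16 for Itga5 (adjusted p = 0.0170) and -0.25 for Itga6 (adjusted p = 0.0256). It was 0.67 for Itgb8 (adjusted p = 0.0102), whose PGKnvA mutant means lay under the filter. The mutants in the vectors are different mutants, so vector and mutation cannot be told apart.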

How the results depend on the processing

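Of 118 named gene comparisons, 20 lost their call in some fit that left out 1 array, and none reversed there. Counts moved by more than 1.5 times when 1 array was left out for higher calls of the eGFP line against Dicer-/- (5 to 8), of wild-type DICER1 against eGFP (7 to 21), of the mutants against eGFP (5 to 17) and of wild-type DICER1 against Dicer+/+ (11 to 20), and for D1709N (5 to 13). With a filter at the 50th percentile, which tests fewer genes, wild-type DICER1 against eGFP gave 3 higher, mutants against eGFP 3 higher, mutants against wild-type DICER1 9 higher and 7 lower, wild-type DICER1 against Dicer+/+ 9 higher, D1709A 12, E1705K 15 and D1810Y 15. When a call also needed a log2 change of 0.5, Dicer-/- against Dicer+/+ gave 1 lower, eGFP against Dicer-/- 4 higher and 4 lower, wild-type DICER1 against eGFP 2 higher and 7 lower, mutants against eGFP 2 higher and 5 lower, mutants against wild-type DICER1 4 higher and 0 lower, wild-type DICER1 against Dicer+/+ 5 higher and 4 lower, D1709A 4, D1709N 2, E1705K 2, D1810Y 6 and E1813Q 3. With only the groups compared in the fit, 5 genes were lower in Dicer-/- than in Dicer+/+ cells. For mutants against wild-type DICER1, PGKnvA arrays alone gave 2 lower genes, and each array set as 1 replicate gave 1 higher and 0 lower in limma.

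Reversals were met only in the mutants against wild-type DICER1. Apart from ENvA arrays alone, also run for the mutants against eGFP, the settings that gave them were run for this comparison only. The other comparisons are therefore not shown to be more stable. Between the arrays numbered 4 the difference was 0.033 for Col6a6, -0.332 for Itga1, -0.028 for Itga8, 0.010 for Itgad, 0.334 for Itgav, 0.036 for Itgb3, 0.067 for Lama1 and 0.033 for Lama3. Itgav was 0.122 in PGKnvA arrays alone (adjusted p = 0.0452 in limma) and 0.031 with sets as replicates, and Lamb2 was -0.011 in ENvA arrays alone. The cause was not tested. Leaving out both arrays numbered 4, an alternative chosen after seeing the data, cost only the call of Lamb2 among the named comparisons. Centring arrays on their medians gave 12 higher and 16 lower genes in place of 14 and 12, and over all genes 3693 higher and 4791 lower in place of 4512 and 3871. It likewise turned the split over all genes to 3487 higher and 4716 lower, from 4283 and 3792, for Dicer-/- against Dicer+/+, and to 3626 and 3075, from 2822 and 3823, for eGFP against Dicer-/-.

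Arrays of the same number in different groups had deviations that correlated at -1 to 0.684 (median -0.02, 88 pairs), and 10 of 28 arrays correlated best with one of their own number, so the numbers were not taken to pair samples. They do link some arrays across groups, since the exact sums tie the arrays numbered 1 of 5 groups and the arrays numbered 4, but those deviations cancel rather than run together. A replicate block in place of the vector term gave a Lama5 difference between mutants and wild-type DICER1 of 0.82. The block took 10 of the 118 calls and moved no count by over 1.5 times. Low levels near the filter and groups of 2 or 3 arrays limit what small differences can show.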
